A study of Mus musculus with 12 samples.

Results

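The colon of mice that lack STING but have interleukin-10 (genotype IL10+/+ STING-/-, called SKO here) was compared with the colon of wild-type mice (IL10+/+ STING+/+, WT). The members are the arrays with those genotypes in the labels, 3 of each, so 6 of the 12 arrays of the series. The other arrays are 3 from mice without interleukin-10 (IL10-/- STING+/+, IL10KO) and 3 from mice without either gene (IL10-/- STING-/-, DKO). All 12 are Affymetrix whole-transcript arrays of total colon RNA, and the differences were read over 22180 named genes. The labels do not give the strain, age, part of the colon or design of either knockout allele, nor whether each array holds a different animal. The p-values therefore measure the spread between the arrays as deposited, which may in part be technical. The labels of 1 WT library, replicate 3, go against its Sting1 signal, so calls between SKO and WT are given with and without the library labelled WT replicate 3. Medians of some gene lists are given with all arrays only.

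STING is an adaptor protein in the membrane of the endoplasmic reticulum. The enzyme cGAS binds DNA in the cytosol and makes the cyclic dinucleotide cGAMP, which binds STING. STING then recruits the kinase TBK1, and the transcription factors IRF3 and NF-kB switch on type I interferon and inflammatory genes. Interferon acts back on cells through its receptor and induces the interferon-stimulated genes. In the gut, bacterial and self DNA can both engage this route, and interleukin-10 restrains the inflammation that gut bacteria elicit.

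Sting1, the gene deleted in SKO, was examined first. Its log2 signal (probe set 17353663) read 7.51 and 6.40 in WT replicates 1 and 2, against 4.56 in the library labelled WT replicate 3. It was 4.40, 4.32 and 4.28 in the SKO arrays. The library labelled WT replicate 3 stood just above the highest SKO array and below both other WT arrays. The group means were 6.16 ± 1.49 (SD, n = 3) in WT and 4.34 ± 0.06 (SD, n = 3) in SKO. Over all arrays Sting1 differed by -1.82 ± 0.52 (SE), which did not pass limma's moderated test (Benjamini-Hochberg adjusted p = 1, called under 0.05). An exact 2-sided permutation test of the 6 arrays gave p = 0.1, the smallest that 3 arrays against 3 allow. Without the library labelled WT replicate 3 the difference was -2.62 ± 0.33, given as a description with no test, since that array was set aside for its Sting1 signal. In mice without interleukin-10 the 3 IL10KO arrays read 6.87, 8.09 and 7.33 and the 3 DKO arrays 4.23, 4.13 and 4.34.

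**Figure D1:**
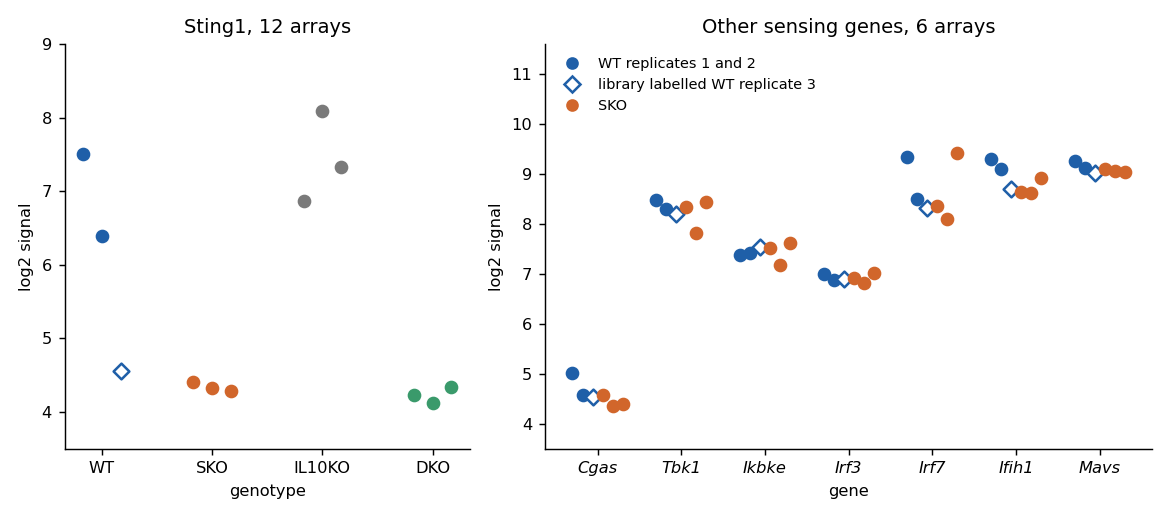
Log2 signal of Sting1 in all 12 arrays by genotype (left) and of 7 other sensing genes in the 6 WT and SKO arrays (right). Each point is 1 array, and the open diamond is the library labelled WT replicate 3, which read 4.56 for Sting1 beside SKO arrays at 4.28 to 4.40.

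Over all genes the same library lay closest to SKO replicate 1. Between these 2 arrays 12 genes differed by at least 2-fold (r = 0.9967 across genes), while WT replicates 1 and 2 differed from each other in 273 and the library labelled WT replicate 3 differed from them in 333 and 224. SKO replicate 2 stood apart within SKO, with 280 and 463 genes at least 2-fold from SKO replicates 1 and 3, which differed from each other in 49. WT replicates 1 and 2 also carried high signals of exocrine pancreas. Over 17 acinar enzymes the mean log2 signal reached 7.96 and 10.60 in those arrays, against 5.20 in the library labelled WT replicate 3 and 4.86 to 5.11 in SKO. Over 28 colonocyte genes the mean was 9.89 to 10.09 in the 6 arrays, and over 20 genes of small intestine it was 5.97 to 6.22, levels that probe sets of different genes do not allow to be compared. Since the RNA is from whole tissue, fewer cells of a type and less RNA per cell cannot be told apart.

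With all arrays as labelled, no gene was called between SKO and WT. None of 22180 genes passed limma's test (0.0%), in either direction, and the lowest adjusted p was 1. At an unadjusted p under 0.05 there were 454 genes (2.05%), 244 higher and 210 lower in SKO. The median standard error of a difference was 0.168. The signals of the 2 genotypes did not overlap for 1378 genes (6.21%), of which 832 were higher (3.75%) and 546 lower (2.46%) in SKO. The difference reached 2-fold for 68 genes, 14 higher and 54 lower.

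The genes with the smallest p in this fit are given as values that did not pass. Lpo, which encodes lactoperoxidase, an antibacterial enzyme of secretions, read 11.05 and 11.36 in WT replicates 1 and 2, 7.43 in the library labelled WT replicate 3 and 7.46, 7.05 and 7.10 in SKO (difference -2.74 ± 0.71, limma unadjusted p = 0.00177). Its groups overlapped only through the library labelled WT replicate 3. The pancreatic genes Cpb1 (-5.12), Cpa1 (-4.85), Ctrb1 (-4.27) and Pnliprp1 (-4.11), the sperm protein gene Zan (-2.01) and the class I histocompatibility gene H2-Q5 (-1.53) followed on the lower side. Ghrl, the gene of the hormone ghrelin, stood at 5.20, 4.87 and 4.74 in WT and at 4.03, 4.45 and 4.53 in SKO (-0.60), and here the groups did not overlap. On the higher side Ppp1r14c, an inhibitor of protein phosphatase 1, read 3.83, 3.87 and 4.25 in WT and 4.41, 5.23 and 4.55 in SKO (0.75 ± 0.20). Col8a1, a collagen chain, read 5.75, 5.64 and 6.17 against 6.22, 6.63 and 6.39 (0.56). Pctp, a phosphatidylcholine transfer protein, read 6.19, 6.38 and 6.78 against 6.98, 7.02 and 6.95 (0.53). For these 3 genes every SKO array was above every WT array, with the library labelled WT replicate 3 nearest to SKO. The other genes with the smallest p on the higher side were Aadac (1.75), Kcnf1 (1.06), Lamtor3-ps (0.93), Tmem117 (0.81), Cts8-ps (0.58), Bhmt (0.54) and Avpr1b (0.49), and on the lower side Micu3 (-0.89) and Sting1. Lpo, Zan, Cpb1, Cpa1, Ctrb1, Pnliprp1, Aadac, Kcnf1, Lamtor3-ps, Tmem117 and Micu3 passed in the fit of 11 arrays that leaves that WT library out.

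Without the library labelled WT replicate 3, 55 genes were called between SKO and WT (limma adjusted p under 0.05, 0.248% of 22180), 23 higher (0.104%) and 32 lower (0.144%) in SKO. Sting1 is 1 of the 32, and its call follows from the choice of array. At an unadjusted p under 0.05 there were 801 genes (3.61%). The rises were smaller than the falls, with a median difference of 1.44 over the 23 rises and -2.69 over the 32 falls. Of the falls 10 are in the pancreatic lists described below. The other 22 had a median of -1.54. They include Sting1, Pla2g1b, the phospholipase of the pancreas, and predicted or clone symbols that stood highest in WT replicate 2, like the acinar enzymes. In all 55 genes the 3 SKO arrays did not overlap WT replicates 1 and 2, which held for 4025 of all genes (18.1%). The count was 32 without SKO replicate 1 and 33 without SKO replicate 3. Where WT replicate 1 or 2 was left out as well, the lone WT array was assumed to vary like the other groups. Many of the 55 were not called there.

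**Figure D2:**
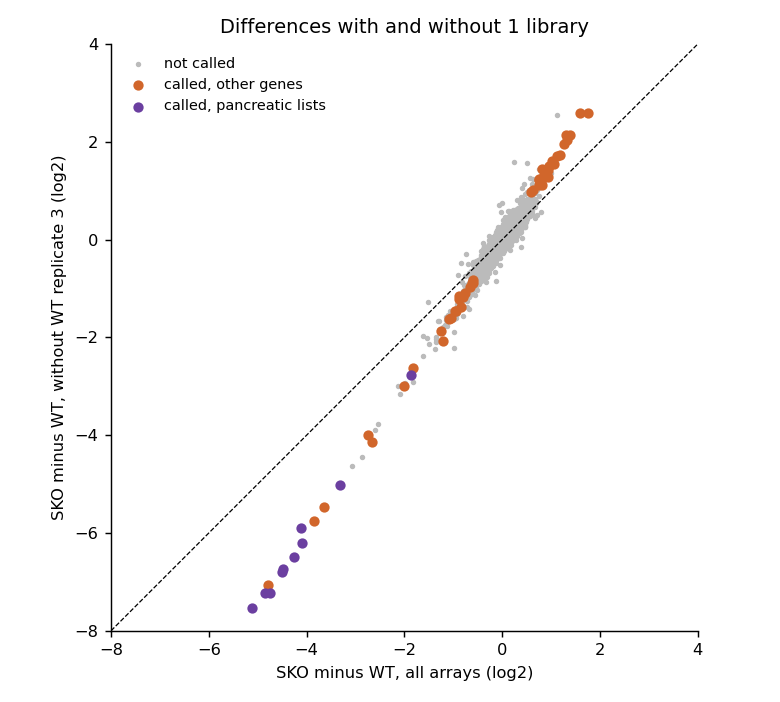
Difference SKO minus WT (log2) of each of 22180 genes with all arrays (horizontal) and without the library labelled WT replicate 3 (vertical). Grey points are genes not called, coloured points the 55 genes called without that library, and the dashed line marks equal values. The called genes lie farther from 0 without that library.

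The library labelled WT replicate 3 took no part in those calls, so its level of the 55 genes could be set beside them. It lay nearer to the SKO mean than to the mean of WT replicates 1 and 2 in 55 of 55 genes, against 59.1% of all genes. For Sting1, 1 of the 55, this was fixed in advance, since that library was set aside for its Sting1 signal. The share of all genes is no baseline, since the 55 were chosen for their difference between SKO and WT replicates 1 and 2. On a scale where the SKO mean is 0 and the mean of the other WT arrays is 1, the median position of that library was -0.005 (range -0.318 to 0.332). It was inside the range of the SKO arrays for 37 of the 55, which held for 68.2% of all genes.

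Among the named rises 4 encode steroid dehydrogenases or esterases. Hsd3b3, a 3-beta-hydroxysteroid dehydrogenase of steroid hormone synthesis, read 4.64 and 5.31 in WT replicates 1 and 2 and 7.85, 6.95 and 7.93 in SKO. The difference without the library labelled WT replicate 3 was 2.60 ± 0.29 (limma adjusted p = 0.00103), and that library read 7.99, above all SKO arrays. Hsd3b2, a near relative, read 4.09 and 5.02 against 6.06, 5.79 and 6.13 (1.44, limma adjusted p = 0.0256), with the library labelled WT replicate 3 at 6.45. Its call ended in 6 of 18 alternatives, among them the omission of WT replicate 1 or of any 1 SKO array (adjusted p up to 0.322). Aadac, a microsomal esterase, read 3.93 and 3.94 against 6.48, 6.003 and 7.07 (2.59 ± 0.29, limma adjusted p = 0.00103). Ces1g, a carboxylesterase, read 5.33 and 4.82 against 6.94, 6.76 and 6.66 (1.71). Its call ended without WT replicate 2 or any 1 SKO array (adjusted p up to 0.177). In each of these 4 genes both WT arrays were below every SKO array.

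The other named rises did not share 1 role. Klk1b22, a serine protease of the kallikrein family, read 6.29 and 7.15 in WT replicates 1 and 2 and 9.07, 8.61 and 8.92 in SKO (2.15 ± 0.30, limma adjusted p = 0.00605, or 0.0861 without WT replicate 1). Igsf23, of the immunoglobulin superfamily, read 6.79 and 6.63 against 8.95, 8.64 and 8.98 (2.15 ± 0.19). Mtmr7, a lipid phosphatase of the myotubularin family, read 3.71 and 4.15 against 6.10, 5.52 and 6.06 (1.96 ± 0.22). In these 3 genes the lowest SKO array was over 1 above the highest WT array left in the fit. Xpnpep2, a membrane aminopeptidase, rose by 1.72, but its call ended in 9 of 18 alternatives, among them quantile normalization and median centring (adjusted p up to 0.349). Kcnf1, a potassium channel subunit, rose by 1.54 (adjusted p = 0.0625 without WT replicate 2). Ahcy, the enzyme that hydrolyses S-adenosylhomocysteine, rose by 1.51 in its brightest probe set, and the mean of its probe sets gave 0.55 (limma adjusted p = 0.54). The call of Ahcy also ended without WT replicate 2, SKO replicate 1 or SKO replicate 3, and in a fit of only the SKO and WT arrays. The kallikrein, carboxylesterase and Hsd3b genes belong to families of close copies, so their probe sets may read relatives as well.

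Of the falls outside the pancreatic lists, leaving out predicted and clone symbols, Pla2g1b, Gbp2b and Lpo were the largest. Pla2g1b, the secreted phospholipase A2 of the pancreas, is in neither list and read 7.03 and 10.69 in WT replicates 1 and 2 against 3.36, 3.59 and 3.22 in SKO (-5.48 ± 0.68, limma adjusted p = 0.00253, or up to 0.0968 in the 2 alternatives that ended its call). Like the acinar enzymes it was higher in WT replicate 2. Gbp2b, an interferon-induced guanylate-binding protein, read 10.20 and 8.44 against 5.01, 4.85 and 5.67 (-4.15 ± 0.41, limma adjusted p = 0.000301). It was higher in WT replicate 1, and the library labelled WT replicate 3 read 4.88. Lpo fell by 4.002 on the log2 scale, with both WT arrays at over 11. Zan, which encodes zonadhesin of the sperm surface, read 7.88 and 8.19 against 5.18, 5.04 and 4.93 (-2.99 ± 0.22). For Lpo and Zan the 2 WT arrays lay close together, while for Gbp2b and Pla2g1b they were over 1.5 apart.

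Among the smaller falls, Tpm3, a tropomyosin, read 9.96 and 9.66 against 8.29, 7.78 and 8.51 (-1.62). As with Ahcy, the mean of its probe sets gave a smaller difference that did not pass (-0.78, limma adjusted p = 0.103). The call of Tpm3 also ended without WT replicate 1 and in a fit of only the SKO and WT arrays. Tm6sf2, a protein of lipoprotein secretion, read 9.22 and 8.75 against 7.57, 7.32 and 7.67 (-1.47). Mboat2, a lysophospholipid acyltransferase, read 8.03 and 7.98 against 6.65, 6.27 and 6.72 (-1.46). Both fell in the fit, but the call of Tm6sf2 ended without WT replicate 1 or any 1 SKO array (adjusted p up to 0.244). That of Mboat2 ended without any 1 of WT replicates 1 and 2, the SKO arrays and DKO replicate 2 (adjusted p up to 0.239). The calls of Aadac, Hsd3b3, Igsf23, Mtmr7, Gbp2b, Lpo, Zan and H2-Aa held in all 18 alternatives.

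**Figure D3:**
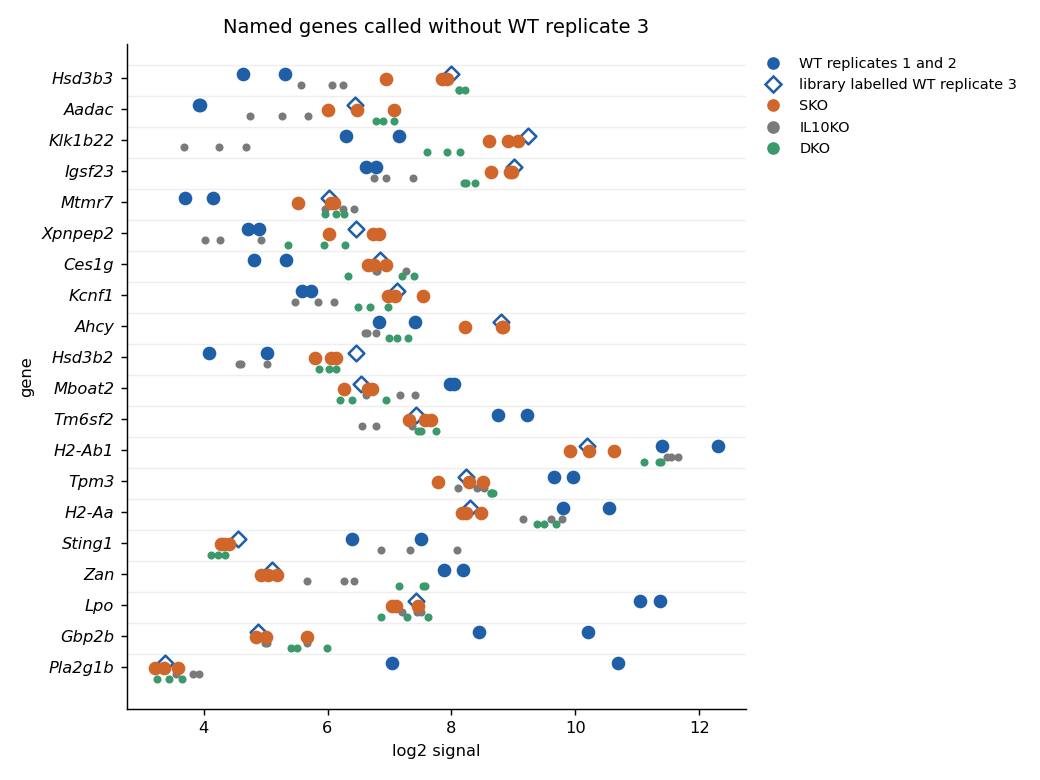
Log2 signal of the 10 largest rises and 10 largest falls called without the library labelled WT replicate 3, pancreatic lists and predicted or clone symbols left out. Each point is 1 array, and the open diamond is the library labelled WT replicate 3, which lies with the SKO arrays for the genes shown.

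The genes upstream and downstream of STING in DNA sensing did not pass in SKO. Of 21 measured genes of cytosolic nucleic acid sensing none was called with all arrays, and none besides Sting1 without the library labelled WT replicate 3, which was chosen on Sting1. The median difference of the list was -0.13 with all arrays and -0.20 without that library, where the medians of all genes were 0.011 and 0.012. Cgas, the DNA sensor, read 5.01, 4.57 and 4.53 in WT and 4.57, 4.36 and 4.40 in SKO (-0.26 ± 0.18). Tbk1, the kinase, differed by -0.13 ± 0.17 and the related Ikbke by -0.01 ± 0.16. These 3 genes had overlapping groups. Irf3 stood at 6.99, 6.88 and 6.90 in WT and at 6.91, 6.82 and 7.02 in SKO (-0.01 ± 0.15). Irf7, itself induced by interferon, read 9.35, 8.49 and 8.31 against 8.36, 8.10 and 9.43 (-0.09 ± 0.34). For Irf7 1 array of each genotype was high, WT replicate 1 and SKO replicate 3. The list members farthest from 0 after Sting1 were the nucleic acid sensor Zbp1 (-0.61 ± 0.40), the DNA-binding Ifi204 (-0.60 ± 0.35) and the calcium sensor Stim1 (0.34 ± 0.17). Of the 21 genes 2 had groups that did not overlap, Sting1 and Aim2 (9.52%, against 6.21% of all genes), and Aim2, the DNA sensor of an inflammasome, read 8.21, 8.13 and 8.12 against 8.08, 7.79 and 8.05. Without the library labelled WT replicate 3 the groups did not overlap for 38.1% of the 21, against 18.1% of all genes. Of these, 7 were lower in SKO, Sting1 among them, and 1 was higher.

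Interferons and their receptors were also not called. None of 18 measured interferon, receptor and signalling genes passed in either fit, and their median difference was -0.03. Ifnb1, the interferon beta gene, read 2.54 to 2.76 in WT and 2.70 to 2.86 in SKO. These levels lie below the lower quartile of each array (3.46 to 3.61), and with no detection calls in the file a dim signal cannot be called absent. Both chains of the type I interferon receptor had groups that did not overlap (2 of the 18, 11.1%, against 6.21% of all genes), with Ifnar1 at 8.57 to 8.73 in WT and 8.51 to 8.56 in SKO, and Ifnar2 at 7.63 to 7.95 and 7.27 to 7.61. The differences were small, -0.11 ± 0.12 and -0.27 ± 0.16, and neither passed.

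Of 28 type I interferon-stimulated genes none was called in either fit, and none had groups that did not overlap with all arrays (0.0%, against 6.21% of all genes). Their mean log2 signal read 6.95 and 6.18 in WT replicates 1 and 2, 5.98 in the library labelled WT replicate 3 and 5.98, 5.87 and 6.71 in SKO. WT replicate 1 and SKO replicate 3 stood above the other 4 arrays. Isg15, a ubiquitin-like protein and a classical target of interferon, read 7.88, 6.63 and 5.88 in WT and 5.99, 6.44 and 7.81 in SKO (-0.05 ± 0.50). Ifit1, which binds foreign RNA, read 8.04, 6.15 and 5.50 against 5.59, 5.38 and 7.72 (-0.33 ± 0.61). The list's median difference was -0.17 with all arrays and -0.50 without the library labelled WT replicate 3, but 0.08 without WT replicate 1, where 10 of 28 genes were below 0.

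Genes induced by interferon gamma were high in WT replicate 1. Over 14 measured genes the mean signal was 7.30 in that array and 5.12 to 5.60 in the other 5. None was called in either fit. The median difference was -0.67 with all arrays, -1.04 without the library labelled WT replicate 3 and -0.10 without WT replicate 1. Iigp1, an immunity-related GTPase, read 9.15, 6.36 and 5.34 in WT and 5.50, 4.43 and 5.49 in SKO. Cxcl9, a chemokine that attracts T cells, read 8.34, 5.87 and 5.54 against 5.27, 5.32 and 6.28. In both genes WT replicate 1 was the highest of the 6 arrays.

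Of 9 measured class II antigen presentation genes 2 fell in SKO where the library labelled WT replicate 3 was left out (0.144% of all genes did). H2-Aa, the alpha chain of a class II molecule, read 10.54 and 9.80 in WT replicates 1 and 2, 8.29 in the library labelled WT replicate 3 and 8.23, 8.17 and 8.48 in SKO. It fell by 1.88 ± 0.23 on the log2 scale (limma adjusted p = 0.00253). H2-Ab1, its beta chain, read 12.30 and 11.40 against 10.22, 9.91 and 10.62 and fell by 1.60 (limma adjusted p = 0.0152). Its call ended without WT replicate 1, SKO replicate 1 or SKO replicate 2, and in a fit of only the SKO and WT arrays. The other 7 were not called, among them H2-Eb1 (-1.12, adjusted p = 0.165), the peptide exchange factor H2-DMa (-1.28) and Ciita (-1.17), the master regulator of the class. With all arrays none was called. The list median was -0.70 with all arrays, -1.17 without the library labelled WT replicate 3 and -0.26 without WT replicate 1. Where the library labelled WT replicate 3 was left out, 6 of the 9 did not overlap, all lower in SKO (66.7%, against 8.19% of all genes lower). The list mean was 8.27, 7.17 and 6.50 in WT and 6.50, 6.74 and 6.65 in SKO.

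Class I genes and the immunoproteasome were also highest in WT replicates 1 and 2, with none of 11 called in either fit. Their mean was 9.32, 8.43 and 8.03 in WT and 8.08, 7.92 and 8.33 in SKO. The median difference was -0.39 with all arrays, -0.56 without the library labelled WT replicate 3 and -0.14 without WT replicate 1. Where the library labelled WT replicate 3 was left out, 8 of the 11 did not overlap, all lower in SKO (72.7%, against 8.19% of all genes lower). Tap1, the peptide transporter, read 9.73, 8.13 and 7.15 in WT against 7.35, 7.03 and 7.88 in SKO. Lymphocyte markers shared the high WT replicate 1 with these lists. SKO replicate 2 was the lowest array for class I and the highest SKO array for class II. In both marker lists that follow it was the highest SKO array and lay above WT replicate 2. Over 22 T and natural killer cell markers the mean was 5.44, 4.76 and 4.58 in WT and 4.61, 4.86 and 4.65 in SKO. Over 19 B and plasma cell markers it was 6.65, 5.80 and 5.60 against 5.55, 5.92 and 5.47. WT replicate 1 was highest in both, no member of either list was called, and the part of such cells in the differences of the class I and II genes was not tested.

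Promoters of 2 of these genes are shown because they carry the short motifs through which the lists are known to respond. They are the 250 bases before the first listed start in RefSeq (build GRCm38.p6), written 5′ to 3′ on the gene's strand. H2-Aa stands for class II genes, of which it and 1 other of 9 were called, and only without the library labelled WT replicate 3. Isg15 stands for interferon-stimulated genes, of which none was called.
H2-Aa (chr17:34287824-34288073, minus strand, capitals mark the Y box, CCAAT or its reverse complement): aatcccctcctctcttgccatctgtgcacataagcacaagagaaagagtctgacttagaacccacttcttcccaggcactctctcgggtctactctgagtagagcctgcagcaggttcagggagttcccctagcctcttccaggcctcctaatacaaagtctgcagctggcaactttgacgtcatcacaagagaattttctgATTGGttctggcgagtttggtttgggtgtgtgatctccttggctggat
Isg15 (chr4:156200819-156201068, minus strand, capitals mark 3 overlapping matches to the interferon-stimulated response element, searched as GAAA, any 2 bases, GAAA): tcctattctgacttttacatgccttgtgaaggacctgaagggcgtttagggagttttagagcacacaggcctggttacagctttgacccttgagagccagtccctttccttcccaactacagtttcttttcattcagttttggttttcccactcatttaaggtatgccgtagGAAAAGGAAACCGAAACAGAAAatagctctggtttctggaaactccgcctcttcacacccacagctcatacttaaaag
The response element and CCAAT were searched on both strands. The response element was present in 11 of 22 interferon-stimulated genes with a promoter in the table, 7 of 8 interferon-gamma-induced genes (87.5%) and 0 of 7 class II genes, against 3.04% of 27025 promoters. CCAAT was present in 6 of 7 class II genes (85.7%), against 34.5% of all promoters. A match is a description of the letters in this window and not a measured binding site.

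**Figure D4:**
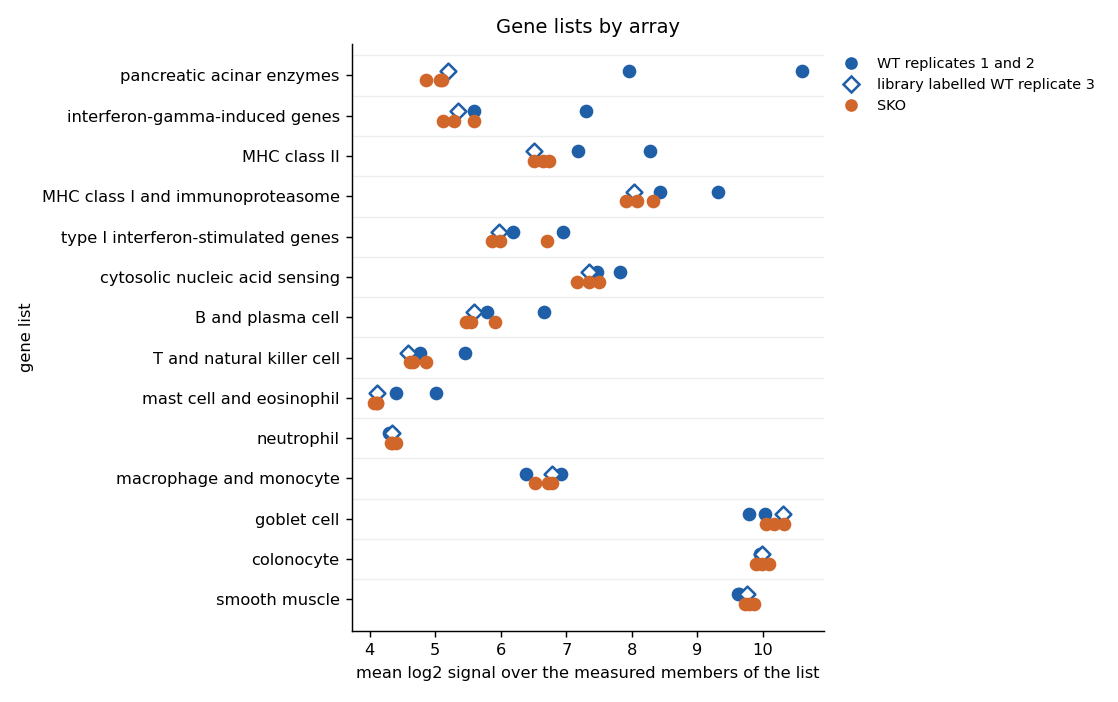
Mean log2 signal over the measured members of 14 gene lists in each WT and SKO array. Each point is 1 array, and the open diamond is the library labelled WT replicate 3. The acinar enzymes stand at 7.96 and 10.60 in WT replicates 1 and 2 and at 4.86 to 5.20 in the other 4 arrays, and the interferon-gamma-induced genes stand at 7.30 in WT replicate 1.

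The acinar enzymes of the pancreas held the largest falls. Of 17 measured genes 9 were called lower without the library labelled WT replicate 3 (0.144% of all genes were) and none higher, and the list median was -4.45, or -2.87 with all arrays, where none was called. Cpb1, a carboxypeptidase, read 9.73 and 11.995 in WT replicates 1 and 2, 3.60 in the library labelled WT replicate 3 and 3.24, 3.41 and 3.32 in SKO (-7.54 ± 0.44). Cpa1 (-7.24), the lipase Cel (-6.80), the ribonuclease Rnase1 (-6.75) and the chymotrypsinogen Ctrb1 (-6.50) had the same order, highest in WT replicate 2. Of 16 pancreatic genes other than those enzymes Reg1 was called (-7.23), while Gp2 (-4.62), Cuzd1 (-3.77) and Tmed6 (-2.14) did not pass. Insulin 2 and amylin, products of the islets, read 2.98 and 2.49 in WT replicate 1 and 3.02 and 2.72 in WT replicate 2, below the lower quartile of those arrays. Pancreatic lists were at 4.59 to 5.37 in their mean in all 6 IL10KO and DKO arrays. Where the library labelled WT replicate 3 is left out, the 2 arrays high in these enzymes are all of WT, so the pancreatic signal and the genotype cannot be told apart there.

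Mast cell proteases also stood highest in WT replicate 1. Mcpt1 read 8.26, 5.61 and 4.06 in WT and 3.71, 4.20 and 4.08 in SKO (-1.98 ± 0.71), and Cpa3 read 7.26, 5.72 and 4.41 against 4.18, 4.09 and 5.10 (-1.34 ± 0.54). Of 15 mast cell and eosinophil markers none was called in either fit, and the mean was 5.01, 4.40 and 4.11 in WT and 4.06 to 4.11 in SKO. Their median difference was -0.17 with all arrays and -0.30 without the library labelled WT replicate 3. Without that library the groups did not overlap for 46.7%, against 18.1% of all genes, with 6 lower and 1 higher in SKO. Kit, the growth factor receptor of mast cells and of pacemaker cells in gut muscle, read 7.91 to 8.16 in WT and 8.07 to 8.25 in SKO. Neutrophil and macrophage lists had median differences of 0.04 and 0.00 with none of 17 and 22 markers called. Inflammatory cytokines and chemokines were not called either, 0 of 32, with a median of 0.00.

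In the epithelial lists 1 gene was called. Of 28 colonocyte markers Ceacam20, a cell adhesion molecule of the brush border, was the 1 called without the library labelled WT replicate 3. It read 10.89 and 10.60 in WT replicates 1 and 2, 9.77 in the library labelled WT replicate 3 and 9.87, 9.57 and 9.86 in SKO (-0.98, limma adjusted p = 0.0437). The list median was 0.01. The sodium channel subunit Scnn1g (0.44 ± 0.35), the sodium-proton exchanger Slc9a3 (0.43 ± 0.32) and the peptide Guca2a (0.30 ± 0.25) did not pass with all arrays. Of 18 goblet cell genes none was called in either fit. The mucin Muc2 read 12.56, 12.72 and 12.91 in WT and 12.95, 12.66 and 12.69 in SKO, and the list median was 0.12. None of 19 epithelial defence genes was called, with a median of 0.02. Retnlb, an antibacterial resistin-like protein, read 9.57, 9.91 and 11.84 in WT and 11.81, 10.42 and 10.78 in SKO, and the library labelled WT replicate 3 and SKO replicate 1 were the highest arrays.

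Among 19 proliferation genes none was called in either fit, with a median of -0.23. The groups did not overlap for 2 of them (10.5%, against 6.21% of all genes), Tyms, of thymidylate synthesis, at 7.40 to 7.48 in WT and 6.95 to 7.23 in SKO, and Ccnb2, a mitotic cyclin, at 8.05 to 8.43 and 7.76 to 7.96. Mki67 read 9.91, 9.79 and 9.40 in WT and 9.39, 9.05 and 9.40 in SKO (-0.42 ± 0.15). Without the library labelled WT replicate 3 the median of the proliferation genes was -0.305. There 7 of the 19 did not overlap, all lower in SKO (36.8%, against 8.19% of all genes lower). Of 17 smooth muscle markers none was called and 3 had all SKO arrays above all WT arrays (17.6%, against 3.75% of all genes). They were Cnn1, Lmod1 and Ldb3, with differences of 0.16, 0.09 and 0.17, and the members farthest from 0 were Tagln (0.25), Des (0.19), Myl9 (0.17) and Pcp4 (0.17). Without the library labelled WT replicate 3, 10 of the 17 had all SKO arrays above both WT arrays (58.8%, against 9.96% of all genes). Of 23 xenobiotic and steroid metabolism genes Hsd3b3 was the 1 called without the library labelled WT replicate 3. Cyp2c55, an abundant cytochrome P450 of colon, read 10.28, 10.97 and 11.61 in WT and 11.61, 11.37 and 11.38 in SKO (0.50 ± 0.42), Cyp2c65 differed by 0.26 and the glutathione transferase Gsta4 by 0.25, and none of these passed.

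The loss of STING can be set beside itself in mice without interleukin-10, through DKO and IL10KO arrays, which share no array with SKO and WT but share the estimate of the spread. There 1284 genes were called (limma, 5.79%), 740 higher (3.34%) and 544 lower (2.45%) in DKO, or 1030 and 474 with each array centred on its median. The excess of rises turned without IL10KO replicate 1 (391 higher, 572 lower) and without DKO replicate 1 (190 and 235). It also turned among called genes that differed by 2-fold or more, with 164 higher and 216 lower. None of the 1284 but Sting1, Klk1b22 and Hsd3b3 was called in SKO in the fit of 11 arrays. The 740 had a median difference of 0.76 in DKO against IL10KO and of 0.01 in SKO against WT, and the 544 had medians of -0.87 and 0.03. The sign was shared by 626 of the 1284, and by 634 without the library labelled WT replicate 3.

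Of the 55 genes called in SKO without the library labelled WT replicate 3, 3 were called in the same direction in DKO against IL10KO, and none in the opposite direction. They were Sting1, whose call in SKO follows from the choice of array, Klk1b22 and Hsd3b3, 5.45% of the 55 and 0.234% of the 1284. Klk1b22 read 3.68, 4.69 and 4.25 in IL10KO and 8.14, 7.93 and 7.60 in DKO (3.69 ± 0.52, limma adjusted p = 0.00163). Hsd3b3 read 6.26, 5.57 and 6.07 against 8.12, 8.22 and 8.13 (2.20 ± 0.60, limma adjusted p = 0.0482). In both genes every array without STING lay above both WT replicates 1 and 2 and every IL10KO array. The rises as a whole had the same sign in DKO against IL10KO in 19 of 23 (45.5% of all genes were above 0 there), with a median of 0.67. The 22 falls outside the pancreatic lists had the same sign in 14 (54.5% of all genes were below 0 there), with a median of -0.12. The 14 include Sting1, the deleted gene, and Pla2g1b and predicted or clone symbols that stood highest in WT replicate 2, like the acinar enzymes.

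**Figure D5:**
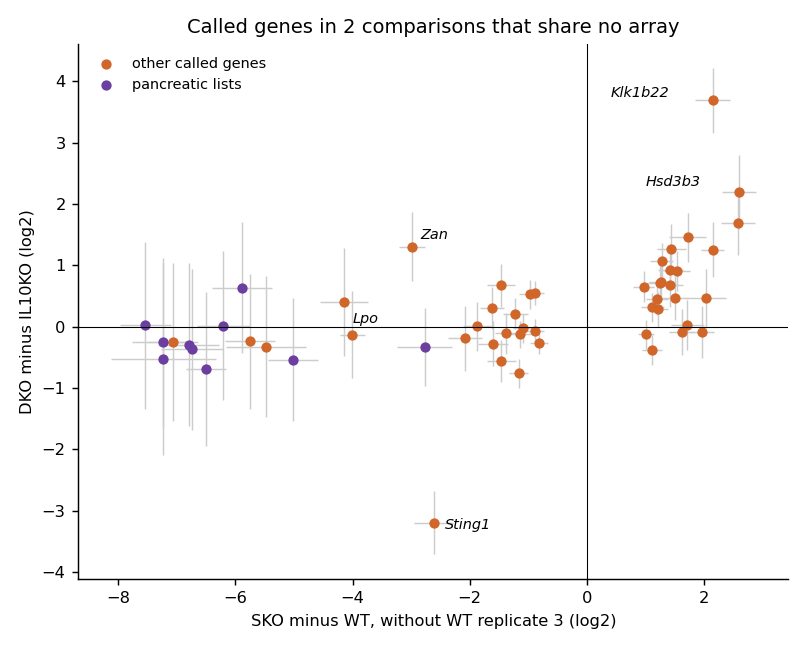
Difference SKO minus WT without the library labelled WT replicate 3 (horizontal) and DKO minus IL10KO (vertical) of the 55 genes called in the first, in log2 units. Bars are standard errors of the fits. The rises at right lie mostly above 0 on the vertical axis, while the 22 falls outside the pancreatic lists have a median of -0.12 there.

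The 9 arrays of the other genotypes show 2 patterns among the 55 genes. In 20 genes all 6 SKO and DKO arrays lay beyond WT replicates 1 and 2 and the IL10KO arrays, 14 higher and 6 lower without STING, a pattern that 170 of all genes had (0.766%). Besides Sting1, Hsd3b3 and Klk1b22 it included Aadac, Igsf23, Xpnpep2, Kcnf1 and Hsd3b2, and among the 6 lower Reg1 and Cel of the pancreatic lists. In 42 genes WT replicates 1 and 2 lay beyond all 9 arrays of the other genotypes, 26 higher and 16 lower in WT (3.09% of all genes). The 26 include the 10 called genes of the pancreatic lists, Pla2g1b and predicted or clone symbols that, like these, stood highest in WT replicate 2. Neither share is a baseline for the 55, since they were chosen with SKO apart from WT replicates 1 and 2. The 42 included Lpo, Gbp2b, Zan, H2-Aa, Tpm3, Mtmr7 and Ces1g. For Lpo the IL10KO arrays read 7.51, 7.44 and 7.21 and the DKO arrays 7.61, 7.28 and 6.87, near SKO. For Mtmr7 they read 6.43, 6.25 and 5.96 and 6.27, 6.14 and 5.97, again near SKO. There were 12 genes with both patterns and 5 with neither.

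The difference between both effects of STING was tested as an interaction. Over all arrays it passed for 143 genes (limma, 0.645%), and without the library labelled WT replicate 3 for 168 (0.757%). Of the 55 genes it passed without that library for 27, of which 23 were falls and 4 rises. Of the falls 9 are in the pancreatic lists. The other 14 include Pla2g1b of the pancreas and predicted or clone symbols that stood highest in WT replicate 2, like the acinar enzymes. For these the pancreatic signal of WT replicates 1 and 2 and the genotype cannot be told apart. The test holds the same SKO and WT difference that chose the 55, so these counts and the values that follow are favoured by the choice. Zan fell by 2.99 on the log2 scale in SKO and differed by 1.303 ± 0.56 in DKO against IL10KO, a difference of effects of -4.29 (limma adjusted p = 1.8e-05). Lpo (-3.87), Gbp2b (-4.56) and H2-Aa (-1.88, limma adjusted p = 0.0159) passed too. For H2-Aa the IL10KO arrays read 9.16, 9.79 and 9.61 and the DKO arrays 9.49, 9.69 and 9.38. Among the rises Mtmr7 passed (2.04, limma adjusted p = 0.00697), and Hsd3b3 (0.40), Aadac (0.90) and Igsf23 (0.90) did not.

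Genes beside Sting1 on its chromosome did not stand out. Of the 50 measured genes on each side, 100 in all, none was called between SKO and WT in either fit. Their groups did not overlap for 6 (6.0%, against 6.21% of all genes), or for 19 without the library labelled WT replicate 3 (19.0%, against 18.1%). In DKO against IL10KO 2 of the 100 were called (2.0%, against 5.79%), Fam13b higher and Ecscr lower.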

How the data were processed

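Total RNA was extracted with an RNeasy kit and 300 ng per array were labelled, per the labels' protocols. The authors deposited 1 table of log2 signals, by probe set and array. The submitters' processing notes name Expression Console, version 1.3.1.187. The log2 scale was inferred from the range of the values. How background and normalization were handled, and on which genome build, is not stated in the sources used here. Array medians lay between 4.80 and 5.02. Precision is limited by having 3 arrays per genotype.

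Of 41345 probe sets 23521 had 1 symbol in the platform annotation, 1814 had several and 16010 none. Each gene was taken by its brightest probe set (1082 genes had over 1). The deposited values were fitted without further normalization or filter in limma 3.58.1 (R 4.3.3), with a mean per genotype over 12 arrays (8 residual and 5.56 prior degrees of freedom) or 11 (7 and 5.91). Genes with a Benjamini-Hochberg adjusted p under 0.05 were called, 2-sided. The steps were tested on simulated data.

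Groups come from the genotype labels, and replicates were numbered in sample order. Named genes are the 10 smallest p in each direction with all arrays. Without the library labelled WT replicate 3 they are the 10 largest called rises and falls whose arrays do not overlap, pancreatic lists left out, and genes also called in DKO against IL10KO. Up to 4 members of each list with a called member, or with 3 members that do not overlap, are added, as are 6 sensing genes. Other list members were chosen as examples after their values were seen. Predicted and clone symbols are not named. The comparison, lists and members were chosen with earlier results of these data known. Of 747 list entries 689 were measured. Alternatives were quantile normalization, median centring, a filter on dim genes, mean or all probe sets, the genotypes compared alone, a trended and robust prior, array weights, a 2-fold threshold and single omissions.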

Additional observations from a re-analysis of the deposited data

Results flagged for a closer look

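The effect of STING loss differed by interleukin-10 status for 143 genes by the interaction in limma with all arrays. Among the genes named above, Pcp4, a calmodulin-binding peptide of smooth muscle, was of this kind. It read 9.17, 9.16 and 8.87 in WT and 9.12, 9.22 and 9.38 in SKO, a difference of 0.17, and 7.77, 7.47 and 7.90 in IL10KO and 9.50, 8.97 and 9.02 in DKO, a difference of 1.45. The difference of effects was -1.27 (limma adjusted p = 0.0319), and it lost its call in 8 of 18 alternatives, among them the omission of WT replicate 1 or 2, DKO replicate 1 or 2 or any 1 SKO array (adjusted p up to 0.095).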

How the results depend on the processing

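With all arrays no gene was called between SKO and WT under any alternative (limma) except the omission of the library labelled WT replicate 3, which gave 55, so the counts over single omissions run from 0 to 55. Array weights called none, but 3437 genes had an unadjusted limma p under 0.05 there, against 454 without weights. For Sting1 the single omissions gave -2.62 to -1.14, with -2.62 without that library, which was chosen on Sting1. Array weights gave -1.70 (limma adjusted p = 0.108). Without that library the 55 became 88 over all probe sets, 32 with only the genotypes compared and 524 with array weights, and 32 to 89 over single omissions of another array. For DKO against IL10KO the 1284 became 380 at 2-fold or more, 828 over all probe sets and 489 with only the genotypes compared, and 425 (without DKO replicate 1) to 2361 (without IL10KO replicate 2) over single omissions, with 504 without DKO replicate 2 and 836 without IL10KO replicate 3. The 143 genes whose STING effect differed by interleukin-10 status became 30 over all probe sets and 736 with array weights, and 50 (without DKO replicate 2) to 376 (without IL10KO replicate 2) over single omissions, with 316 without IL10KO replicate 1 and 51 to 75 without WT replicate 1 or 2, DKO replicate 1 or any 1 SKO array. The cause of these shifts was not tested. None of 41 single-gene results that were recomputed changed direction. Most genes of the sensing and other lists were not among them. No paired analysis was possible because the labels carry no replicate numbers that pair the arrays. A file without detection calls limits what can be said of dim genes, and WT rests on 2 arrays where the third is left out.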
